A study of Mus musculus with 2 samples.

Results

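The Myc and Max network is the set of transcription factors built around Max, and its messenger RNAs were examined in mouse expandable hepatoblasts, liver progenitor cells kept dividing in culture. The members were taken as every gene probe whose array name was Myc, Mycn, Mycl1, Max, Mxd1, Mxd3, Mxd4, Mxi1, Mnt or Mlx. This gave 10 genes and 18 probes, of 20053 named genes on the array, and 9 of the 10 genes gave a signal well above background on at least 1 array, as did 11797 of all named genes. The cells were of strain C57BL/6 and from liver, and they were compared at passage 20 and at passage 5, with 1 array per passage and Cy3-labelled RNA. Cells of both passages were grown in DMEM/F12 with insulin, transferrin and selenite, nicotinamide, an ascorbate phosphate, albumin and antibiotics. Epidermal growth factor (EGF), CHIR99021, E-616452, lysophosphatidic acid (LPA) and sphingosine 1-phosphate (S1P) were present throughout, so neither array shows cells without them. CHIR99021 inhibits the kinase GSK3, and E-616452 inhibits the type I receptor of TGF-beta. The labels say that separate experiments gave the passages, so passage and experiment cannot be told apart, and no difference below has a replicate check, a standard error between cultures or a p-value.

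Max pairs with the other members through a helix-loop-helix and leucine zipper, and the pairs bind E-box DNA, of which CACGTG is the best known form. Myc, Mycn and Mycl1 paired with Max recruit acetyltransferases and activate genes of growth, ribosome production and metabolism. Mxd1, Mxi1, Mxd3, Mxd4 and Mnt paired with Max bring the Sin3 corepressor and histone deacetylases to the same kind of site. Mlx is a relative of Max that pairs with some of the repressors and with the glucose-sensing factors Mlxip and Mlxipl. In liver, Myc is known as a gene switched on early in regeneration and often overactive in liver tumours, while Mxd1 is best known from cells that leave the cycle and differentiate.

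The passage 20 array had 18969 of 41158 gene probes (46.1%) above background and the passage 5 array 18738 (45.5%), with 0 saturated spots. Hepatoblast markers were read in both cultures: 7 of 9 were above background on each array, Afp and Foxa2 among them, and Foxa1 and Dlk1 were not. Some of them differed between passages: Cdh1 was 2.89-fold and Prox1 2.02-fold higher at passage 20, and Epcam was 2.24-fold lower. Prox1 was measured with 1 of its 3 probes, and its passage 5 signal lay near the lowest that counted as above background. All 5 biliary markers were above background on both arrays and Spp1 among them was 6.83-fold higher at passage 20, while 0 of 6 hepatocyte markers were above background on either. Neither endothelial nor erythroid markers were above background, and 2 of 5 leukocyte markers, Cd68 and Cd3e, were so on both arrays, though Ptprc was not. Of 6 stellate and fibroblast markers, 0 were above background at passage 20 and 1, Dcn, at passage 5. Their summed level, in multiples of each array's 75th percentile signal, was 0.208 at passage 20 and 1.97 at passage 5. At passage 20 this sums signals not well above background, and at passage 5 most of it is from Dcn. Of 3 mesothelial markers, 1 was above background at passage 20 and 3 at passage 5, with summed levels of 221 and 159 at passage 20 and passage 5, nearly all from Msln. The part of these marker differences in the results below was not tested.

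Array probes show what was read of each transcript, and 3 of them are printed because, from general knowledge of these genes and not from an annotation, they are taken to lie in coding sequence, and they belong to members whose probes can be compared. They are given 5′ to 3′ as deposited, with mm9 positions per the file headers. The dimmest and the middle Myc probe lie at chr15:61820925-61820984 and chr15:61821417-61821476 on the plus strand, and the middle one is taken to run across the end of the reading frame, whose stop codon is in capitals. The middle Mxd4 probe lies at chr5:34520307-34520366 on the minus strand.
Myc, probe 3: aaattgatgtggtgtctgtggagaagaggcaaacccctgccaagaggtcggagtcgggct
Myc, probe 2: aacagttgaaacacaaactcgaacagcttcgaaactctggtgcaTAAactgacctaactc
Mxd4, probe 2: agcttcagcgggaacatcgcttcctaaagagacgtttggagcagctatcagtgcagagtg

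Levels are given as log2 signal relative to the 75th percentile of the array, where 0 means equal to that percentile, and differences are passage 20 minus passage 5. Probes of a gene are numbered from the brightest, and the brightest stands for the gene. Levels of different probes are not set against each other, since probes differ in how well they bind. Of the 18 probes, 13 were above background on both arrays, 1 on 1 array only and 4 on neither.

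**Figure D1:**
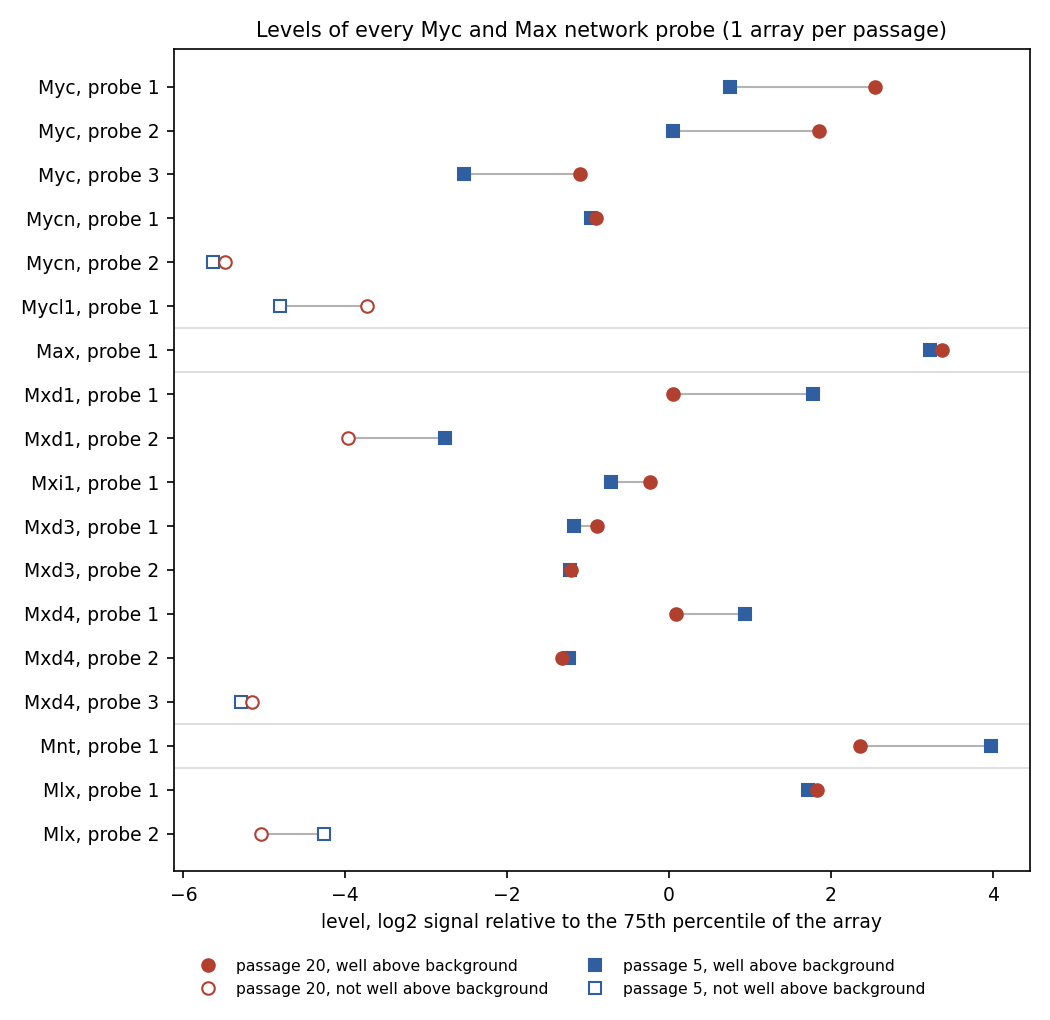
Level of every network probe (log2 signal relative to the 75th percentile of its array) at passage 20 (red circles) and passage 5 (blue squares), with open symbols where the signal was not well above background. All 3 Myc probes lie to the right at passage 20, while the Mnt probe and the brightest Mxd1 and Mxd4 probes lie to the left.

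Among the activators, Myc was higher at passage 20 and Mycn was nearly level, while Mycl1 was not detected. The brightest Myc probe, at chr15:61821516-61821576, read 2.55 at passage 20 and 0.75 at passage 5, a difference of 1.80 log2 or 3.47-fold. The other Myc probes gave the same direction. Probe 2 read 1.86 at passage 20 and 0.05 at passage 5, a difference of 1.80 (3.49-fold). Probe 3 read -1.09 at passage 20 and -2.54 at passage 5, a difference of 1.44 (2.72-fold). The probe with the stop codon in capitals and the brightest probe, which lies downstream of it, thus differed by nearly the same amount, and the probe farther upstream by less. That upstream probe was also the dimmest, with unscaled signals of 399 at passage 20 and 187 at passage 5. Its position, its dimness and the error of its reading therefore cannot be told apart. The scanner software's own error of the difference, for a single spot on each array, was 0.21, 0.21 and 0.30 log2 for the 3 probes in that order. It is the software's estimate and does not cover variation between cultures. The gap between the dimmest probe and the other Myc probes is of the size of these errors, so it is not read as a difference between probes. In RNA pooled from a whole culture, a different share of cells with Myc RNA and a different amount per cell cannot be told apart.

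The brightest Myc probe was printed at 10 places on the array, which shows the noise of the reading itself. At passage 20 its unscaled signal was 4758 at the lowest, 5022 at the median and 5196 at the highest spot, with a mean of 4994 ± 143 (SD over 10 spots). At passage 5 it was 1689 at the lowest, 1807 at the median and 2208 at the highest spot, with a mean of 1833 ± 142. The spots of the passages did not overlap, and the lowest at passage 20 was 2.16 times the highest at passage 5 before scaling. Spots on 1 array repeat 1 RNA, and how many other probes with 10 spots separated in this way was not counted. The SD of a difference taken from 1 spot on each array was 0.11 log2 for this probe. Over the 115 probes with 10 spots that were above background in all of them, that SD had a median of 0.08 log2 and a 95th percentile of 0.25.

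**Figure D2:**
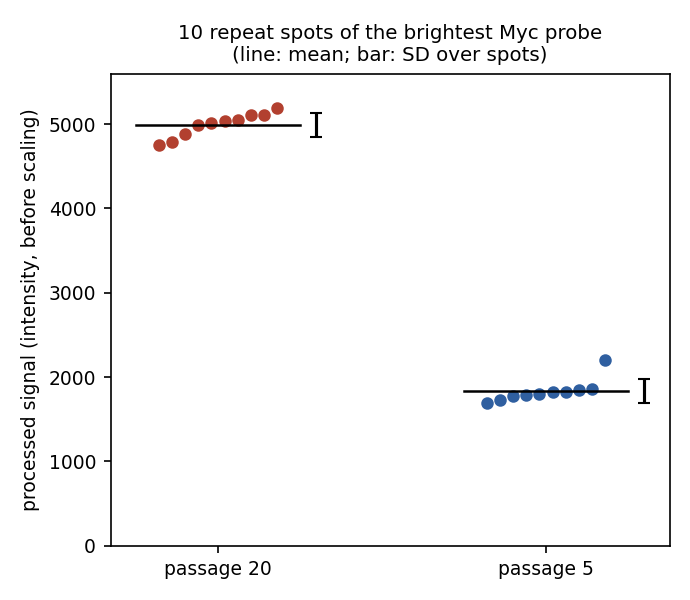
Unscaled signal of the 10 spots of the brightest Myc probe at passage 20 (left) and passage 5 (right). Spots at passage 20 lie between 4758 and 5196 and those at passage 5 between 1689 and 2208, with no overlap; spots on 1 array are technical repeats of 1 RNA.

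Mycn, the family member best known from neural and embryonic progenitors, read -0.90 at passage 20 and -0.97 at passage 5 with its brighter probe, at chr12:12943193-12943252. This is a difference of 0.07 log2 (1.05-fold), within the software's error of 0.23, and it was negative under median centring, spike-in scaling and loess. On neither array was its other probe well above background. Mycl1, the third family member, has 1 probe, at chr4:122679548-122679607, which read -3.73 at passage 20 and -4.81 at passage 5, on neither array well above background, so no fold is given. Of the detected activators, Myc and Mycn, only Myc thus differed 2-fold, and whether Mycl1 differed could not be read.

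Max, the shared partner, read 3.37 at passage 20 and 3.23 at passage 5 with its probe at chr12:78038283-78038342. The difference of 0.14 log2 (1.10-fold) lay within the software's error of 0.20. Mlx, the partner of the glucose-sensing branch, read 1.82 at passage 20 and 1.72 at passage 5 with its brighter probe at chr11:100952426-100952485, a difference of 0.10 (1.07-fold). The partners thus read nearly alike on the arrays, though the sign of both differences turned with scaling: Max was at -0.17 and Mlx at -0.21 after median centring, and Max at -0.07 and Mlx at -0.11 after scaling to the spike-ins. The other Mlx probe was below background on both arrays.

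Among the repressors, Mxd1 and Mnt were more than 3-fold lower at passage 20, Mxd4 was lower by less and with 1 of its 2 measured probes, and Mxi1 and Mxd3 were within 1.5-fold. Mxd1 read 0.05 at passage 20 and 1.77 at passage 5 at chr6:86597190-86597249. The difference was -1.72 log2, or 3.30-fold lower, against a software error of 0.21. A dimmer Mxd1 probe, at chr6:86600751-86600810, was above background at passage 5 only and gave a bound of at least 1.32-fold lower, in the same direction.

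Mnt, the repressor that is found in most tissues and is regarded as the standing counterweight of Myc, read 2.36 at passage 20 and 3.97 at passage 5. Its single probe lies at chr11:74658915-74658974, and its unscaled signals were 4370 at passage 20 and 17050 at passage 5. The difference was -1.62 log2 (3.07-fold lower), with a software error of 0.20. No second Mnt probe was on the array to set beside it.

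Mxd4 gave different readings by probe. The brightest probe, at chr5:34516836-34516895, read 0.09 at passage 20 and 0.94 at passage 5, a difference of -0.85 log2 (1.81-fold lower; software error 0.21). The probe printed above read -1.32 at passage 20 and -1.23 at passage 5, a difference of -0.09 (1.06-fold lower; software error 0.23). A probe designed on another cDNA was below background on both arrays. The Mxd4 difference therefore rests on 1 probe, and the probes cover different stretches of the gene.

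Mxi1, also called Mxd2, read -0.24 at passage 20 and -0.72 at passage 5 at chr19:53446996-53447055, which is 0.48 log2 or 1.40-fold higher. Mxd3, the repressor whose RNA is known from S phase of dividing cells, read -0.89 at passage 20 and -1.18 at passage 5 with its brighter probe at chr13:55427000-55427059, a difference of 0.29 (1.22-fold), which median centring put at -0.02. Its other probe differed by 0.01. The repressors thus did not move as a group: 3 of 5 were below 0 and the others above it.

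Counted at 2-fold, 1 of the 9 measured members was higher at passage 20 (Myc), where 3.26% of all measured named genes were. Lower at passage 20 were 2 of 9 (Mxd1 and Mnt), where 5.74% of all were. At 1.5-fold the counts were 1 of 9 higher, beside 10.4% of all genes, and 3 of 9 lower (Mxd4 added), beside 11.8%. At 4-fold they were 0 of 9 in each direction, beside 0.5% higher and 1.36% lower of all genes. The median difference of the measured members was 0.10 log2, near the 0.07 of all measured named genes. Of all calls at 2-fold 36.3% were higher, and this share was 14.6% after median centring, 19.5% after spike-in scaling and 23.0% after loess. Median centring put the median of all genes at -0.24 log2 and spike-in scaling at -0.14.

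Of 10748 genes with signal above background at both passages, 45 (0.419%) had a difference as high as that of Myc or higher. As low as Mxd1 or lower were 130 genes (1.21%), and as low as Mnt or lower were 145 (1.35%). For Mxd4 the number was 565 (5.26%). Mxi1 had 1531 genes as high or higher (14.2%) and Mxd3 2969 (27.6%), while Max, Mlx and Mycn lay near the middle, with 43.4%, 48.1% and 52.0%. Each count includes the member itself. These positions describe 2 arrays and are not error rates.

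**Figure D3:**
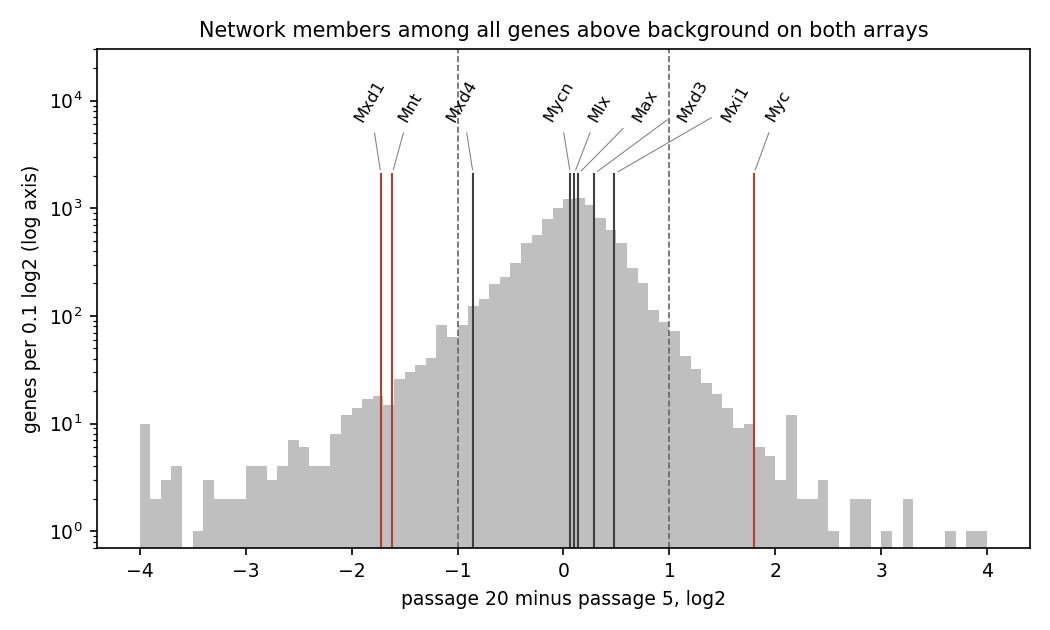
Histogram of the passage 20 minus passage 5 difference (log2) of the 10748 genes measured on both arrays, with genes per bin on a log axis, bars at the ends holding values beyond the axis, and vertical lines at the members. Myc lies in the upper tail, Mxd1 and Mnt lie in the lower tail past the dashed 2-fold lines, and 5 members lie near the centre.

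A scale factor of the array cancels when members are set against each other within an array. Relative to Max, Myc was 1.66 log2 (3.15-fold) higher at passage 20 than at passage 5. Relative to Max, Mxd1 was -1.86 (3.64-fold lower) and Mnt -1.76 (3.38-fold lower), while Mxd4 was -0.99 (1.99-fold lower). With the mean over probes, which takes in a Mxd4 probe below background on both arrays, Mxd4 was at -0.41. Mxi1 stood at 0.34, Mxd3 at 0.15, Mlx at -0.04 and Mycn at -0.07. So Myc and the repressors Mxd1 and Mnt changed unequally with Max whatever scale is used, and this says nothing of which RNA stayed the same.

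The ratio of Myc to each repressor was higher at passage 20 in all 5 cases. Against Mxd1 it was 3.52 log2 (11.5-fold) higher and against Mnt 3.41 (10.6-fold). The rest were smaller, at 2.65 (6.27-fold) against Mxd4, 1.51 (2.84-fold) against Mxd3 and 1.32 (2.49-fold) against Mxi1. With the mean over probes, which takes in the Mxd4 probe below background on both arrays, the change against Mxd4 was 1.95. Its size thus depended on the probe choice. Over 11 processing alternatives the Myc to Mxd1 change ran between 3.14 and 3.52 and the Myc to Mnt change between 3.30 and 3.42. Several of these, such as median centring, spike-in scaling and the filters on dim probes, could not move these ratios by construction. These are ratios of RNA signals, and protein amounts were not measured.

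**Figure D4:**
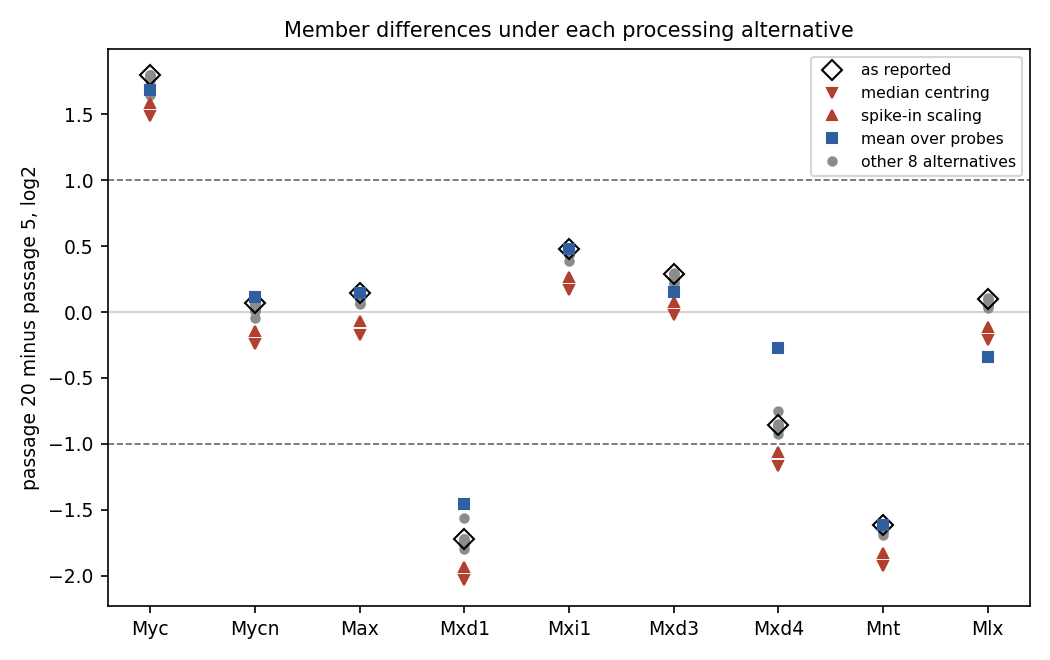
Passage 20 minus passage 5 difference (log2) of the 9 measured members as reported (diamonds) and under 11 processing alternatives, with dashed lines at 2-fold. Myc stays above and Mxd1 and Mnt stay below the 2-fold lines in all of them, while Mxd4 passes its line under median centring and spike-in scaling and Max, Mlx, Mycn and Mxd3 lie on either side of 0.

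Promoter sequence is shown for members whose start region holds CACGTG, the network's own binding motif and so a place where its pairs could bind. Windows of 300 bases from RefSeq (build GRCm38.p6) were searched for the letters CACGTG, which read the same on both strands. Myc was not searched, and the other 9 members had 11 windows. The motif was in 1 window each of 4 of these 9 members, Max, Mxd4, Mnt and Mlx, and in 2349 of 32851 windows of all genes (7.15%). In Max it begins 3 bases before the start site. The stretches printed lie upstream of the start, with the motif in capitals, at chr11:74830754-74830853 on the plus strand for Mnt, chr5:34187877-34187960 on the minus strand for Mxd4 and chr11:101087203-101087289 on the plus strand for Mlx.
Mnt, motif from 123 bases upstream: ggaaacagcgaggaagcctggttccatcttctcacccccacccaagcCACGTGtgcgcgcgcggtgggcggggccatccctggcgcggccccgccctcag
Mxd4, motif from 219 bases upstream: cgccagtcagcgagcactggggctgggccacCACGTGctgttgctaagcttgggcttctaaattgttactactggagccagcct
Mlx, motif from 40 bases upstream: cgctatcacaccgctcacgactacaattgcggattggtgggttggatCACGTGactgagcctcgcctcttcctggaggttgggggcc

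The members with the motif differed among themselves: Mnt was at -1.62 and Mxd4 at -0.85 log2, while Max was at 0.14 and Mlx at 0.10. Mxd1, at -1.72, had none in its window. A match describes the letters only, and binding was not measured.

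Genes around the network were described by 7 lists of 157 genes, 154 of them measured. At 2-fold, 2 of the 154 were higher at passage 20 (1.30%, beside 3.26% of all genes) and 7 were lower (4.55%, beside 5.74%), and 145 lay within 2-fold. Their median was 0.05 log2. With signal required on both arrays, 1 list gene was higher and 5 were lower, beside 266 and 428 of the 10748 such genes. The counts are small, so their gap from the shares of all genes is not read as a result.

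**Figure D5:**
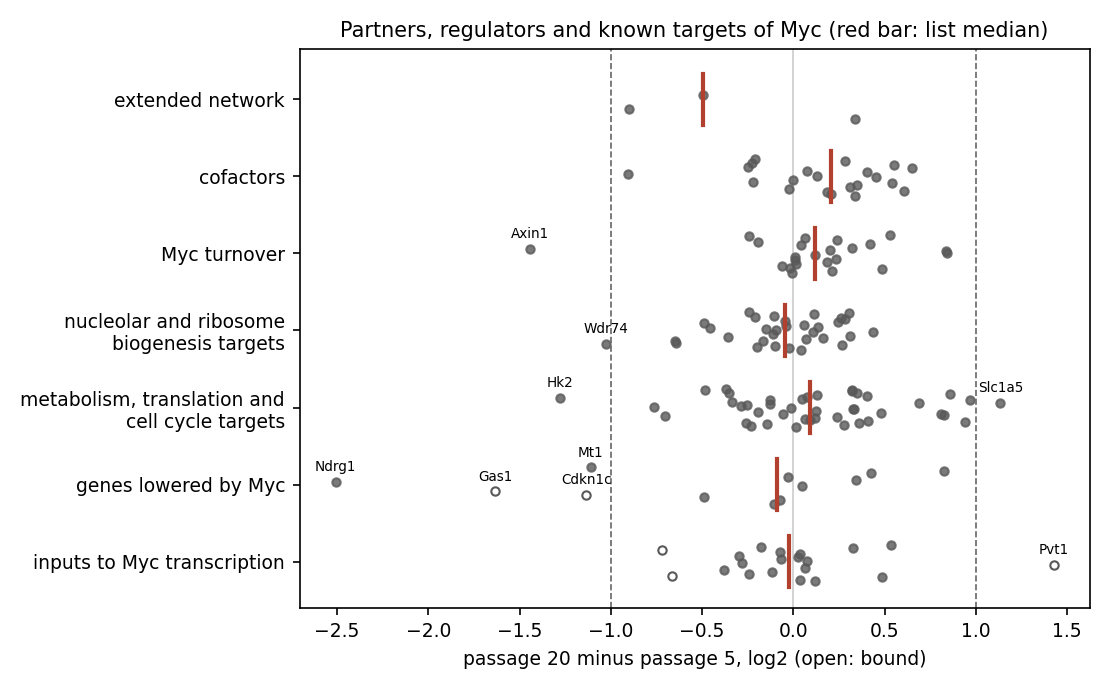
Passage 20 minus passage 5 difference (log2) of each measured gene in the 7 lists, with open circles for bounds, red bars for list medians and dashed lines at 2-fold. Most genes lie within 2-fold, and 4 genes of the list known to be lowered by Myc lie below it.

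The glucose-sensing branch and the large Max partner Mga were within 2-fold in all 3 measured genes. Their median was -0.50 and lay below 0 in 10 of 11 alternatives, at -0.09 with normexp background correction. With the mean over probes it was 0.15. That mean also takes in probes not well above background, since 1 of 2 Mlxipl and 2 of 3 Mga probes were measured. The direction thus depended on the probes taken. Mlxipl, or ChREBP, a factor that turns on sugar-responsive genes in liver, read -2.99 at passage 20 and -2.09 at passage 5, a difference of -0.90. Mlxip, or MondoA, its relative, was at -0.50 and Mga at 0.34.

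Cofactors that Myc or the repressors recruit were within 2-fold in all 21 genes, with a median of 0.21. Kat5, or Tip60, an acetyltransferase, had the largest difference, at -0.91, with levels of -0.33 at passage 20 and 0.58 at passage 5. Hdac1, a histone deacetylase of the Sin3 complex, was at 0.65. Trrap, the scaffold of Myc's acetyltransferase complexes, was at 0.60 with its brightest probe and between -0.20 and 0.76 over its probes. Its direction thus depended on the probe.

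Enzymes and adaptors that set the life of the Myc protein were within 2-fold in 22 of 23 genes, with 0 higher, 1 lower and a median of 0.12. Axin1, a scaffold that brings GSK3 to its substrates, read -1.53 at passage 20 and -0.08 at passage 5, 2.72-fold lower (-1.44). Skp2 and Huwe1, which belong to ubiquitin ligases that act on Myc, were each at 0.84. All measured Huwe1 probes were higher at passage 20, the lowest by 0.77. Usp36, a nucleolar enzyme that removes ubiquitin from Myc, was at 0.53.

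Known Myc targets for building ribosomes in the nucleolus were within 2-fold in 31 of 32 genes, with 0 higher, 1 lower and a median of -0.04. Wdr74, a ribosome assembly factor, read 0.89 at passage 20 and 1.91 at passage 5, 2.04-fold lower (-1.03). Rrp12, which acts in ribosome export, was at -0.65. Ncl, or nucleolin, was at -0.64, with its 4 probes between -1.26 and -0.49. Ubtf, a transcription factor of ribosomal RNA genes, was at -0.49. With 3.26% of all genes 2-fold higher and 5.74% lower, these counts are near the background.

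Known Myc targets in metabolism, translation and the cell cycle were within 2-fold in 41 of 43 measured genes, with 1 higher, 1 lower and a median of 0.09. Slc1a5, a glutamine transporter, read 3.58 at passage 20 and 2.44 at passage 5, 2.20-fold higher (1.13). Ctps, a CTP synthase, was at 0.97. Hk2, a hexokinase of glycolysis, read 0.52 at passage 20 and 1.80 at passage 5, 2.43-fold lower (-1.28). The list thus held differences in both directions.

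Genes known to be lowered by Myc in other cells were 2-fold lower in 4 of 12 measured genes and 2-fold higher in 0, beside 5.74% lower and 3.26% higher of all genes, with a median of -0.09. Of the 4 lower calls, 2 are bounds that need signal on 1 array only and so are lost where signal is required on both. Ndrg1, a gene of differentiation and stress responses, read 1.18 at passage 20 and 3.69 at passage 5, 5.69-fold lower (-2.51). Mt1, a metal-binding metallothionein, read 4.82 at passage 20 and 5.93 at passage 5, 2.16-fold lower, with probes at -1.11 and -0.87. Gas1, a growth arrest gene, and Cdkn1c, a cell cycle inhibitor, were above background at passage 5 only and gave bounds of at least 3.11-fold and at least 2.20-fold lower. The other 8 genes of the list were within 2-fold.

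Inputs to Myc transcription were within 2-fold in 19 of 20 measured genes, with 1 higher, 0 lower and a median of -0.02. Pvt1, a long noncoding RNA gene that neighbours Myc, was above background at passage 20 only, with levels of -1.89 at passage 20 and -4.06 at passage 5. This is at least 2.69-fold higher, from 1 of its 2 probes. Lef1 and Tcf7l1, factors that work with beta-catenin, were above background at passage 5 only, at least 1.65-fold and at least 1.59-fold lower. Fubp1, which binds upstream of Myc, was at 0.53.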

How the data were processed

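Per the labels' protocols, 1-colour Agilent arrays, 1 per passage, received Cy3-labelled RNA amplified from total RNA. Per the file headers, the deposited spot intensity came from Agilent Feature Extraction 10.7.3.1, background-subtracted and detrended, with a surrogate value below noise. The authors also deposited log2 values with the same sorted values in both columns (largest gap 0.000609, median 6.31 in each), whose correlation with scanner log2 signal was 0.99986 for passage 20 and 0.99987 for passage 5; the sources used here name no normalization tool.

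Control and outlier-flagged spots (69 at passage 20, 73 at passage 5, dropped on both arrays) were left out, log2 intensity was averaged per probe, and each array's 75th percentile (853 for passage 20, 1085 for passage 5, as signal) was taken off. Each gene was read from its probe with the highest mean. Of the probes, 27645 were named by accession, 5592 by symbol and 470 by older symbol through the RefSeq table. A probe above background on 1 array gives a bound against the dim array, taken as the higher of the probe's own value there and that array's floor (-3.17 log2 at passage 20, -3.32 at passage 5), written as at least N-fold. A difference counted at 2-fold; 1.5-fold and 4-fold, other scalings, filters, probe rules, normexp (offset 50) and loess in limma 3.58.1 (R 4.3.3) were alternatives. Named genes were all members and, of each list, those past 2-fold or up to 4 with the largest differences; some that this rule takes are left out of the text. Members and lists were chosen with earlier results of these data known. Scaling and the differences of probes above background on both arrays were tested on simulated data. The choice of a gene's probe and the bounds were not tested in this way. Precision is limited by the number of arrays, 1 per passage, and no test was made.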

Additional observations from a re-analysis of the deposited data

How the results depend on the processing

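Under 11 alternatives to scaling, background, filters and probe choice, Myc kept a difference between 1.48 and 1.80 log2, Mxd1 between -2.03 and -1.46 and Mnt between -1.93 and -1.61, past 2-fold in all 11. Mxd4 ran between -1.16 and -0.27 and passed 2-fold under median centring (-1.16) and spike-in scaling (-1.06); its lowest size came with the mean over probes. Mxi1 ran between 0.17 and 0.48, Mxd3 between -0.02 and 0.29, Max between -0.17 and 0.14, Mycn between -0.25 and 0.11, and Mlx between -0.34 and 0.10. Members 2-fold higher numbered 2 with no filter, where Mycl1 is below background on both arrays, and 0 at 4-fold; 0 were lower at 4-fold. Among all genes, 193 were higher and 1127 lower with median centring, 233 higher with spike-in scaling, 252 higher and 398 lower with normexp, 428 lower when signal was required on both arrays, and 1286 in each direction with no filter. At 1.5-fold 1230 were higher and 1388 lower, and at 4-fold 59 and 161. Of the genes in the 7 lists, 1 was higher with median centring, with spike-in scaling and with signal required on both arrays, 5 with the mean over probes, 13 at 1.5-fold and 0 at 4-fold; 12 were lower with median centring, 4 with normexp, 15 at 1.5-fold and 1 at 4-fold. The causes were not tested, beyond what thresholds and filters change by construction. The list medians of ribosome targets and of genes lowered by Myc were below 0 in all 11, and those of the other lists changed sign in some. No paired analysis was possible because each passage has 1 array, and no array could be left out. Dim probes limit Mycl1, the dimmer Mycn probe and the bounds to statements about background. The mean over probes also averages in signals not well above background. Among them are the dimmest Mxd4 probe, the dimmer Mlx probe and, at passage 20, the dimmer Mxd1 probe, so its values for these genes rest partly on such signals.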

Other observations

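Within the list of metabolic targets, enzymes of nucleotide synthesis, picked after their values were seen, did not run in 1 direction. Cad, which starts pyrimidine synthesis, was at 0.69 log2 (passage 20 minus passage 5), Tyms, the thymidylate synthase, at 0.81 and Paics, of purine synthesis, at 0.83. Gart, of the same purine route, was at -0.76, and Atic, its last enzyme, at 0.01. Ccne1, a cyclin of S phase entry, was at 0.86 and Cdk4 at -0.26. Among genes known to be lowered by Myc, the cell cycle inhibitor Cdkn2b was at 0.83, with levels of 4.27 at passage 20 and 3.44 at passage 5, and Cdkn1a at -0.11. Fbxw7, the ubiquitin ligase subunit that recognises Myc marked by GSK3, was at 0.04, Gsk3a at 0.01 and Gsk3b at -0.24.

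Some genes related to the network by name lie outside the rule. Bmyc, a Myc relative, read -0.18 at passage 20 and -0.09 at passage 5, a difference of -0.09. Mycs, another relative, was on neither array well above background. Mycbp, a Myc-binding protein, had probes at 0.35, 0.89 and 1.00 log2, the brightest of them at 0.35. A probe for a cDNA that the array describes as Max interacting protein 1, on the minus strand of chromosome 19, was likewise not detected above background.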
